A study of Homo sapiens with 6 samples.

Results

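The subunits of condensin and cohesin described here are 10 genes, taken from the expression table by symbol: *NCAPD2*, *NCAPG*, *NCAPH*, *NCAPD3*, *NCAPG2*, *NCAPH2*, *SMC2*, *SMC4*, *SMC1A* and *SMC3*. All 10 names were found, among 20348 genes in the table, and all 10 passed the filter on low counts that left 11973 genes for testing. MV4-11 is an established human cell line from acute myeloid leukemia (AML), and WNK463 is a compound that inhibits WNK kinases. Transcripts were sequenced from 3 Control samples, labelled untreated and described as a blank control, and from 3 samples that received 1 μM WNK463, with 48 h of exposure in both groups. The comparison asks which transcripts differ between cells that received WNK463 and untreated cells, and no vehicle is named for the Control. The labels do not say that the replicates came from separate cultures, so the p-values measure the spread between these samples, which may be technical.

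Condensin and cohesin are ring-shaped complexes, each built on a pair of SMC ATPases closed by a kleisin subunit. Condensin I and condensin II share the SMC2-SMC4 pair and differ in their kleisin and HEAT-repeat subunits, and both compact chromosomes for mitosis, condensin II from inside the nucleus and condensin I after the nuclear envelope breaks down. Cohesin, built on SMC1A and SMC3, holds sister chromatids together and extrudes chromatin loops, and genes of its subunits are recurrently mutated in AML.

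The total counts were 17411780, 15328483 and 17246723 in Control replicates 1 to 3, and 15824474, 16171235 and 14915745 in the WNK463 replicates. Counts of the 10 subunits ranged from 743 to 7830 per sample. The 9 myeloid markers examined (*PTPRC*, *CD33*, *SPI1*, *CSF1R*, *CD4*, *LYZ*, *FLT3*, *HOXA9* and *MEIS1*) were present in every sample, between 27.2 and 1765 TPM (transcripts per 1000000, a level that allows for transcript length). Of 10 markers of T cells, B cells, erythroid, epithelial and fibroblast cells, 7 were at a count of 0 in all samples, and none of the 10 passed the filter on low counts. In bulk RNA, fewer cells that express a gene and less RNA of it per cell cannot be told apart.

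Control replicate 1 differed from Control replicates 2 and 3 in a way that followed base composition. Across 6088 genes with a mean log2 CPM above 5, its log2 difference from the mean of the other 2 Control replicates was larger at a higher GC content of the transcript, with a Spearman correlation of 0.62. The same measure had a correlation of -0.14 for Control replicate 2 and -0.64 for Control replicate 3. Control replicates 1 and 3 thus had correlations of similar size and opposite sign. For the WNK463 replicates the values were 0.14, -0.42 and 0.34. Genes are not independent replicates, and each of these correlations shares libraries with the others, so they are given as a description. The log2 fold change itself had a correlation of -0.30 with GC content. Member results whose call rests on Control replicate 1 are therefore given below with and without it, and all members with an offset for GC content in each sample, an alternative chosen after the data were seen.

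The GC content of the members' longest coding transcripts ran from 37.3% to 62.2%. *SMC4* (37.3%), *SMC2* (37.6%), *SMC3* (38.9%) and *NCAPG* (39.0%) were the most AT-rich, and in all 4 the level in Control replicate 1 was the lowest of the Control samples. Their log2 differences from Control replicates 2 and 3 were -0.32, -0.44, -0.38 and -0.31. *NCAPH2*, with a GC content of 62.2%, had a difference of 0.15 in the other direction.

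**Figure D1:**
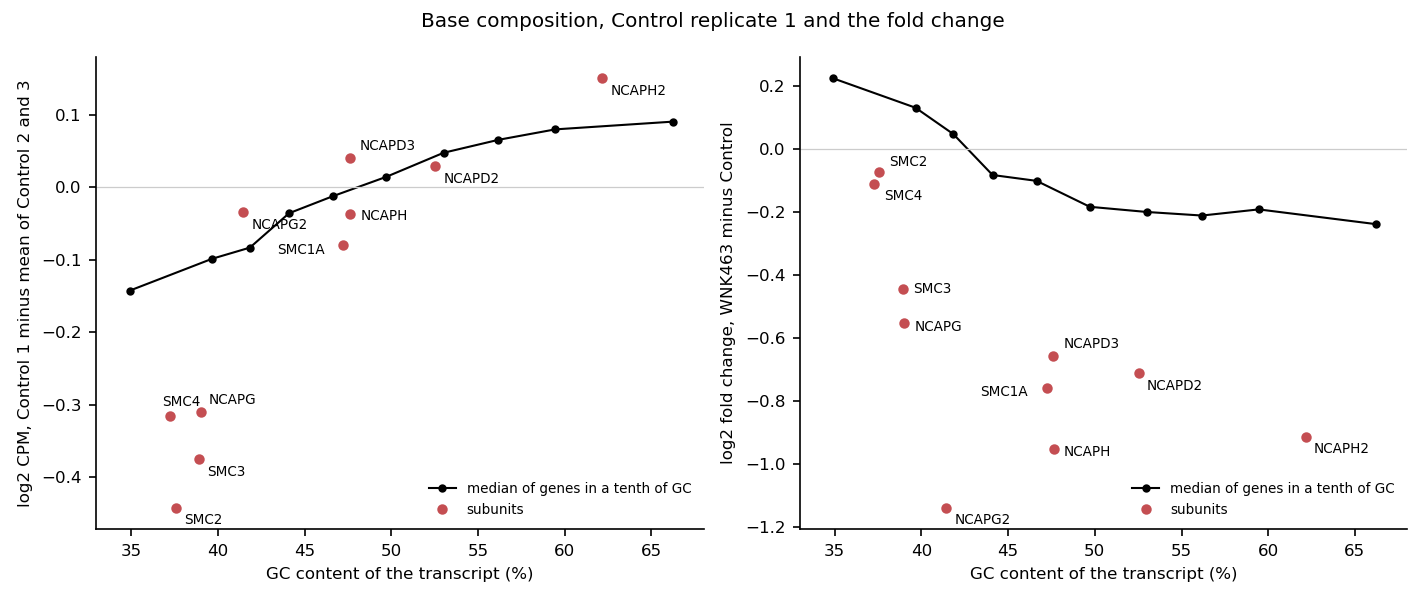
GC content of the transcript (x axis, %) against the log2 CPM difference of Control replicate 1 from the mean of the other Control replicates (left) and against the log2 fold change of WNK463 over Control (right). Black points are medians of genes in 10 bins of GC content that hold equal numbers of genes, drawn at the middle of each bin's bounds, and red points are the 10 subunits, of which *SMC2*, *SMC4*, *SMC3* and *NCAPG* lie from -0.44 to -0.31 in the left panel.

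Promoters of the members were taken from RefSeq (GRCh38.p14), each 250 bases before to 50 bases after an annotated start. Symbols of 9 of the 10 members matched, with 13 windows in all, and *NCAPH2* was not matched. The windows were searched on both strands for the cell cycle homology region (CHR, TTTGAA or TTCGAA), for E2F words (TTTGGCG or the word TTTCGCG or the word TTTCCCG or the word TTTGCCG) and for CCAAT. The CHR letters occurred in at least 1 window of 7 members and in 16.4% of all 35116 windows, the E2F words in 2 members and 8.67% of windows, and CCAAT in 3 members and 34.6% of windows. A member with several windows has more chances of a match, and over all 27305 genes the shares with a match in any window were 19.5%, 10.4% and 39.7%. These matches are a description of letters in a window, not binding sites.

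The windows below are shown for a condensin I subunit with the CHR letters and 4 CCAAT words (*NCAPD2*, chr12:6493852-6494151, plus strand), for the subunit with the largest fold change (*NCAPG2*, chr7:158704755-158705054, minus strand), for a shared subunit whose groups overlapped (*SMC4*, chr3:160399400-160399699, plus strand) and for a cohesin subunit with E2F words (*SMC1A*, chrX:53422605-53422904, minus strand). Each is written 5′ to 3′ on the strand of the gene, with the matched letters in capitals, where TTCAAA and ATTGG are TTTGAA and CCAAT on the opposite strand.
NCAPD2: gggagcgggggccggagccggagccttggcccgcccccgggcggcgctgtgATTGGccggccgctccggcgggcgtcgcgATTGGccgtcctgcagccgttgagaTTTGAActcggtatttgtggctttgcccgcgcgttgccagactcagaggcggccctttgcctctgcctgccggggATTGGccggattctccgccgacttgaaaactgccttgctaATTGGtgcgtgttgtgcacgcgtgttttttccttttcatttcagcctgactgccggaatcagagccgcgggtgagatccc
NCAPG2: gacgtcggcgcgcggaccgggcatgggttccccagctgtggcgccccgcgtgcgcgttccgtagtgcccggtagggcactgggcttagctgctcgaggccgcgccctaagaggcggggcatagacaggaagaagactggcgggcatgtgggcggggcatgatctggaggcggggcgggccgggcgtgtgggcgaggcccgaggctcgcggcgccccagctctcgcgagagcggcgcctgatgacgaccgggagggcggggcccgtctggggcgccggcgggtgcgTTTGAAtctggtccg
SMC4: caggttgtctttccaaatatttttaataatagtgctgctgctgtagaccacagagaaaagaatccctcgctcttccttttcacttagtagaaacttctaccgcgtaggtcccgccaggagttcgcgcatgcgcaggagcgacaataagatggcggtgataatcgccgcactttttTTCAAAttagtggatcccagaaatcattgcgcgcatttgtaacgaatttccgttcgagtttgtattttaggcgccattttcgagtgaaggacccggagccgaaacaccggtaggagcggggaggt
SMC1A: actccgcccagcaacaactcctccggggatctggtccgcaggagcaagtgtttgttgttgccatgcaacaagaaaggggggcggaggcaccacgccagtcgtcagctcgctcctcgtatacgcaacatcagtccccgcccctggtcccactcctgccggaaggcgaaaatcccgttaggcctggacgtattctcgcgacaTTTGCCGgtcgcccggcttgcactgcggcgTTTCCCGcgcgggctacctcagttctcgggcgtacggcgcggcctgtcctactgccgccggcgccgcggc

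In *NCAPD2* the CHR letters began 145 bases before the start, and in *SMC4* they began 75 bases before it. In *NCAPG2* they began 35 bases after the start, in the only match of that window. The CHR letters were thus present in members that fell with WNK463 and in *SMC2* and *SMC4*, whose groups overlapped.

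Condensin I was lower with WNK463 in each of its 3 specific subunits. Levels are given in CPM, counts per 1000000 counts of a library scaled with edgeR's TMM factors. *NCAPD2* (ENSG00000010292), a HEAT-repeat subunit on chromosome 12 (GRCh38, 6493356 to 6531955), had 477, 477 and 457 CPM in Control and 294, 278 and 290.2 CPM with WNK463. *NCAPG* (ENSG00000109805), the other HEAT-repeat subunit, on chromosome 4 (17810902 to 17844862), had 92.9, 110.2 and 120.3 CPM in Control and 71.4, 77.0 and 72.3 CPM with WNK463. *NCAPH* (ENSG00000121152), the kleisin of condensin I on chromosome 2 (96335787 to 96373845), had 114, 123 and 111 CPM in Control and 59.8, 57.8 and 62.6 CPM with WNK463. For each of the 3 genes every WNK463 sample was below every Control sample, and for *NCAPG* Control replicate 1 lay closest to the treated samples.

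By edgeR's quasi-likelihood test, adjusted over all 11973 genes, *NCAPH* fell most of the 3, with a log2 fold change of -0.95 (standard error 0.058, adjusted p = 1.0e-10), which is 48.3% below Control. For *NCAPD2* the value was -0.71 (standard error 0.045, adjusted p = 1.7e-10 from edgeR). *NCAPG* had -0.55 (standard error 0.075, adjusted p = 3.8e-06 from edgeR), the lowest precision of the 3, with a 95% interval from -0.71 to -0.39. Without Control replicate 1 the value for *NCAPG* was -0.65, and without Control replicate 3 it was -0.47. With the GC offset it was -0.69, while limma on log2(TPM + 1) gave -0.37. With the offset *NCAPD2* was -0.52 and *NCAPH* -0.82, both smaller falls than without it. The median over condensin I was -0.71, and -0.69 with the offset, against 0.02 and 0.09 over all tested genes.

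Condensin II was lower with WNK463 in each of its 3 specific subunits as well. *NCAPG2* (ENSG00000146918), a HEAT-repeat subunit on chromosome 7 (158631311 to 158704829), had 144, 144 and 152 CPM in Control and 65.9, 65.8 and 68.2 CPM with WNK463. *NCAPH2* (ENSG00000025770), the kleisin of condensin II on chromosome 22 (50508216 to 50523472), had 101, 92.6 and 88.7 CPM in Control and 50.2, 52.2 and 47.4 CPM with WNK463. *NCAPD3* (ENSG00000151503), a HEAT-repeat subunit on chromosome 11 (134150119 to 134225454), had 297, 285 and 293 CPM in Control and 190.1, 184 and 181 CPM with WNK463. The groups did not overlap for any of these genes, and the SD of *NCAPG2* (n = 3) was 4.30 CPM in Control and 1.38 CPM with WNK463.

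*NCAPG2* had the largest fold change of the 10 members, with a log2 fold change of -1.14 (standard error 0.052, adjusted p = 2.5e-12 from edgeR), and 3.97% of tested genes had a lower value. Its level was 54.5% below Control. *NCAPH2* fell by 0.91 on the log2 scale (standard error 0.063, adjusted p = 5.4e-10 from edgeR) and *NCAPD3* by 0.66 (standard error 0.046, adjusted p = 6.7e-10 from edgeR). With the GC offset *NCAPG2* was -1.19, *NCAPH2* -0.67 and *NCAPD3* -0.52. With limma on log2(TPM + 1) *NCAPD3* had its smallest fall of the 14 alternatives, at -0.42. The median over condensin II was -0.91, against -0.71 over condensin I. With the offset the medians were close, at -0.67 and -0.69.

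The SMC pair shared by both condensins was not called in either direction, and the difference from the other subunits was not tested. *SMC2* (ENSG00000136824), on chromosome 9 (104094260 to 104141417), had 111, 146 and 157 CPM in Control and 132, 138 and 123 CPM with WNK463. *SMC4* (ENSG00000113810), on chromosome 3 (160399274 to 160434962), had 354, 421 and 462 CPM in Control and 378, 401 and 368 CPM with WNK463. In both genes the groups overlapped, with Control replicate 1 below all WNK463 samples, while Control replicates 2 and 3 were above them.

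Neither gene passed the test, with log2 fold changes of -0.07 for *SMC2* (95% interval -0.26 to 0.11, adjusted p = 0.47 from edgeR) and -0.11 for *SMC4* (95% interval -0.26 to 0.04, adjusted p = 0.17 from edgeR). Both intervals had a lower end of -0.26. That of *NCAPG* ran from -0.71 to -0.39, and the difference between these genes was not tested. The values of *SMC2* and *SMC4* depended on which Control library was left out. Without Control replicate 1 both genes were called lower, at -0.21 each, with adjusted p = 0.0014 for *SMC2* and 3.8e-04 for *SMC4* from edgeR. Without Control replicate 3 *SMC2* turned to 0.02 and *SMC4* was -0.03, and neither passed. With the GC offset they were also called lower, at -0.27 (adjusted p = 6.7e-04 from edgeR) and -0.32 (adjusted p = 2.1e-06). With scaling by total counts both signs turned, to 0.08 and 0.04, and so they did with limma on log2(TPM + 1), to 0.11 and 0.02, in each case without passing. Total-count scaling moved the median of all tested genes up by 0.15, so *SMC2* and *SMC4* lay below that median under either scaling. The offset also removes any difference between the groups that runs with GC content, and the cause of the shift in Control replicate 1 was not tested.

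In cohesin, both SMC subunits were lower. *SMC1A* (ENSG00000072501), on chromosome X (53374149 to 53422728), had 441, 473 and 460.0 CPM in Control and 284, 262 and 267 CPM with WNK463. *SMC3* (ENSG00000108055), on chromosome 10 (110567691 to 110604636), had 152, 191 and 203 CPM in Control and 133, 145 and 123 CPM with WNK463. Neither gene's groups overlapped in CPM. In TPM those of *SMC3* did overlap, with 50.4, 64.8 and 68.5 in Control and 50.9, 56.2 and 47.1 with WNK463. *SMC1A* fell by 0.76 on the log2 scale (standard error 0.048, adjusted p = 1.7e-10 from edgeR), and *SMC3* by 0.44 (standard error 0.083, adjusted p = 1.2e-04 from edgeR). With limma on log2(TPM + 1), *SMC3* did not pass, at -0.24 (adjusted p = 0.085 from limma). Without Control replicate 1 it was -0.56, and without Control replicate 3 it was -0.37. With the GC offset *SMC3* was -0.59 and *SMC1A* -0.63.

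**Figure D2:**
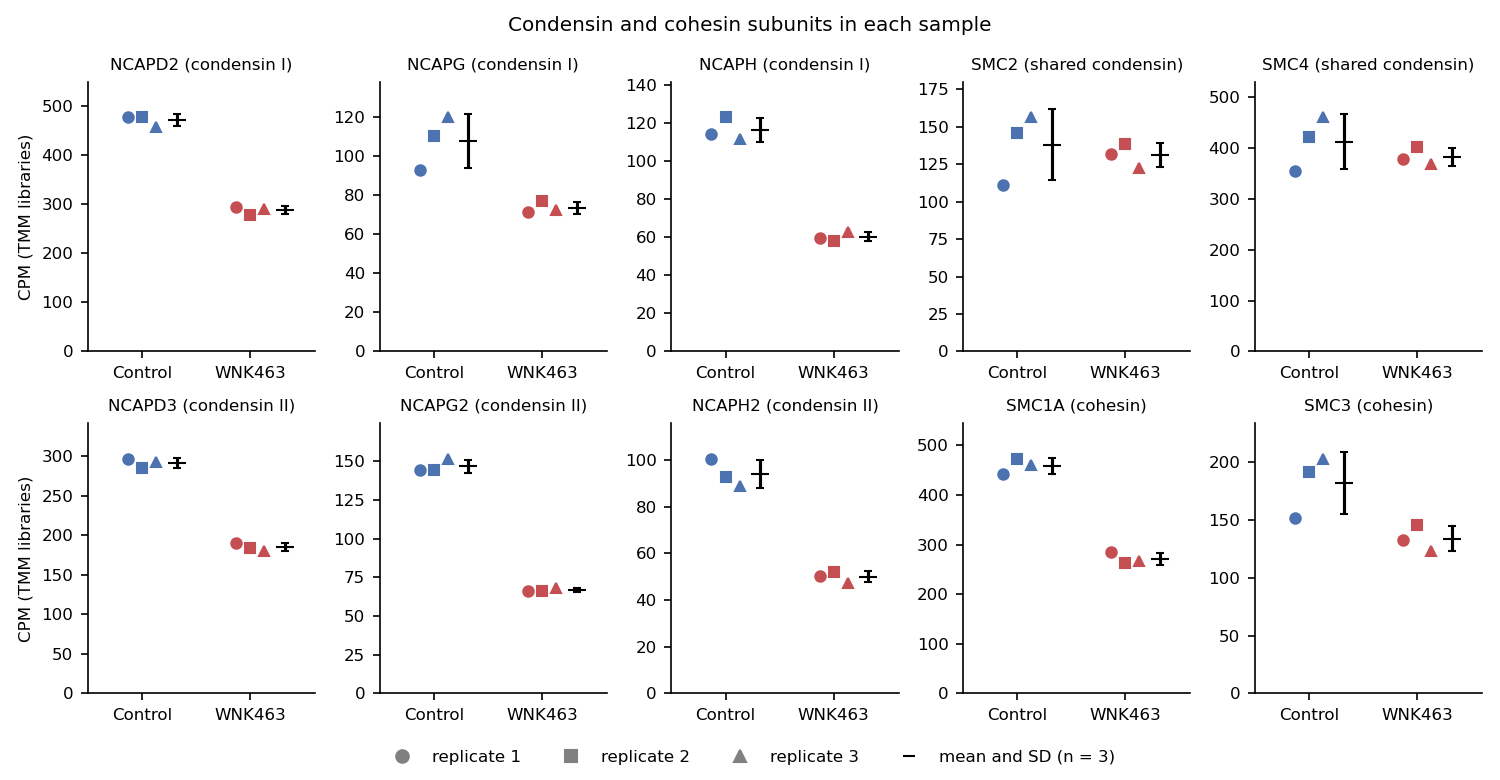
CPM of the 10 subunits (y axis, from 0) in each Control (blue) and WNK463 (red) sample, with the symbol showing the replicate number and the black bar the mean and SD of 3 samples. The groups are apart in 8 genes and overlap in *SMC2* and *SMC4*, where Control replicate 1 (circle) is the lowest sample.

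Counted over both complexes, 8 of the 10 members were lower at an adjusted p below 0.05, by edgeR's quasi-likelihood test. Over all tested genes 35.3% were called lower and 35.5% higher, so a call in itself was common in this comparison. In the same 8 members all 3 WNK463 CPM values lay below all 3 Control values, which held for 36.4% of tested genes. The median log2 fold change of the 10 members was -0.68, and 25% of tested genes lay below -0.38. At a log2 fold change of -1 or less, 1 member was called, *NCAPG2*, against 5.55% of tested genes. That call was lost with total-count scaling (-0.99) and with limma on log2(TPM + 1) (-0.91), where its adjusted p stayed below 0.05.

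Of the genes called, 50.2% were higher with TMM scaling, 63.9% with total-count scaling and 65.2% with either limma fit. The limma fits moved the median of all tested genes by 0.146 to 0.156. The number of members called lower was 10 without Control replicate 1, where 34.8% of genes were called lower, and 10 with the GC offset, where 30.6% were. With total-count scaling it was 8, where 26.1% of genes were called lower, and with limma it was 7, without *SMC3*, where 23.3% and 23.2% of genes were called lower with the added values of 1 and 0.1. All 6 subunits specific to a condensin were lower under each of the 14 alternatives run for them.

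**Figure D3:**
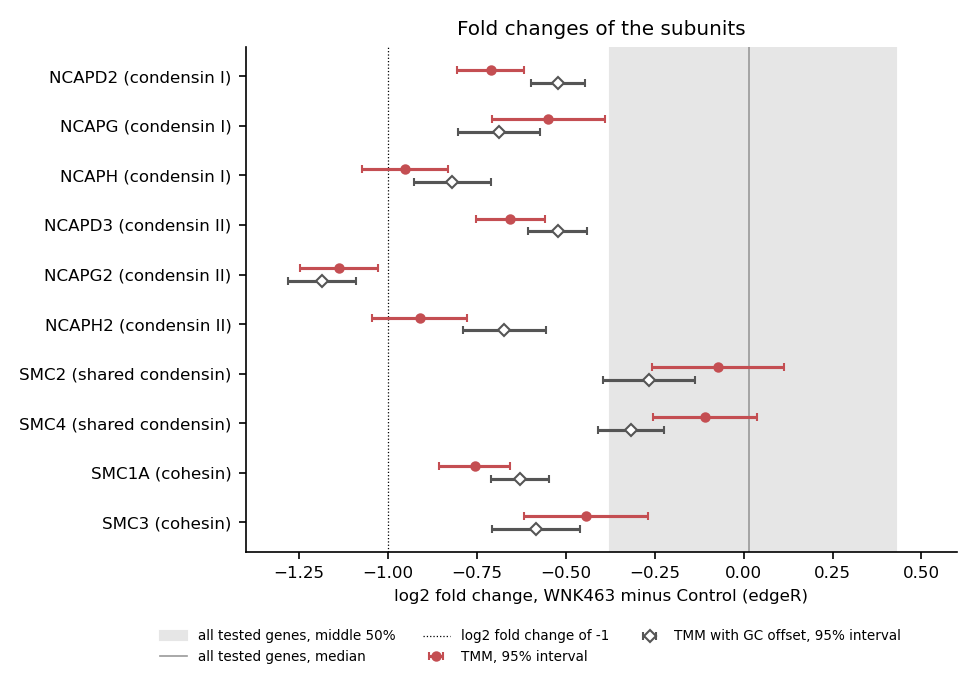
Log2 fold changes of the 10 subunits with 95% intervals from edgeR (x axis), with TMM scaling (red) and with TMM scaling plus a GC offset (open). The grey band holds the middle 50% of all tested genes, and *SMC2* and *SMC4* lie inside it with intervals that cross 0 under TMM but not with the offset, while both had a positive value with total-count scaling.

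TPM values, which can be set beside each other between genes, gave the order of the levels. In Control, *NCAPD2* was highest at 225 ± 13.5 TPM (SD, n = 3), followed by *SMC1A* at 176 ± 15.9 and *SMC4* at 160.5 ± 22.5, which overlapped each other. *NCAPH* (119 ± 7.41 TPM), *NCAPD3* (103 ± 0.710), *NCAPH2* (80.7 ± 3.75) and *NCAPG2* (72.2 ± 2.60) followed without overlap between neighbours. *SMC3* (61.2 ± 9.55 TPM), *NCAPG* (49.5 ± 6.28) and *SMC2* (48.5 ± 9.77) overlapped at the lower end. With WNK463, *SMC4* became the highest at 162 ± 6.38 TPM and *NCAPD2* came next at 141 ± 8.88, without overlap. *SMC1A* (117 ± 8.71 TPM), *NCAPD3* (76.7 ± 2.94) and *NCAPH* (69.3 ± 3.90) followed without overlap, and *SMC2* (51.9 ± 2.95), *SMC3* (51.4 ± 4.55) and *NCAPH2* (43.6 ± 3.61) each overlapped a neighbour. *NCAPG2* and *NCAPG* were the lowest, at 37.8 ± 0.688 and 38.0 ± 1.72 TPM, and overlapped.

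Ratios of paired subunits within a sample do not depend on the scaling between samples. The ratio of *NCAPG* to *NCAPG2* TPM was 0.606, 0.720 and 0.727 in Control and 0.972, 1.05 and 0.987 with WNK463. *NCAPG* thus gained on *NCAPG2* in every treated sample. The ratio of *SMC1A* to *SMC3* was 3.14, 2.91 and 2.67 in Control and 2.46, 2.07 and 2.29 with WNK463, again without overlap. The GC offset is not part of these ratios. The difference between the log2 fold changes of *SMC1A* and *SMC3* was -0.31 with TMM scaling and -0.04 with the GC offset. That between *NCAPG* and *NCAPG2* was 0.59 and 0.50, and that between *NCAPD2* and *NCAPD3* was -0.06 and 0.002. For *NCAPH* and *NCAPH2* the difference was -0.04 and -0.15, where the log2 change of the TPM ratio was 0.10. For *SMC2* and *SMC4* it was 0.04 and 0.05. For *NCAPD2* over *NCAPD3* the TPM ratio was 2.18 ± 0.121 (SD, n = 3) in Control and 1.84 ± 0.0879 with WNK463, without overlap. Taken from CPM, which carry no length term, that ratio overlapped between the groups, and its log2 change was -0.06 in place of -0.24. The ratios of *NCAPH* to *NCAPH2* (1.48 ± 0.122 and 1.59 ± 0.103) and of *SMC2* to *SMC4* (0.301 ± 0.0230 and 0.320 ± 0.0105) overlapped between the groups. No test was run on the ratios.

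**Figure D4:**
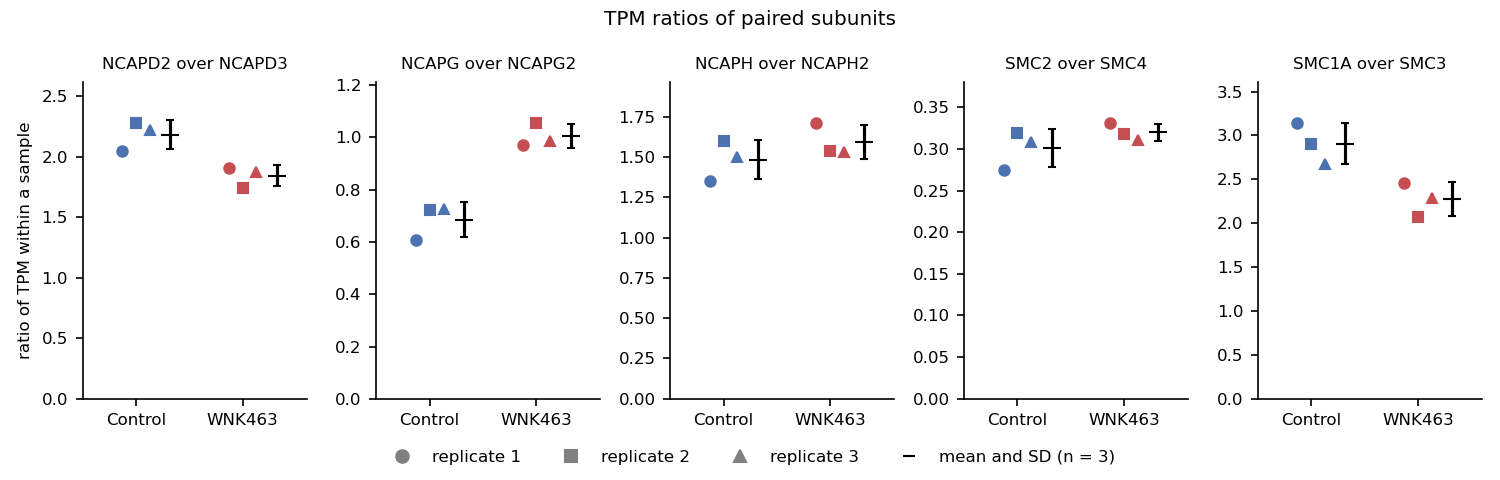
Ratio of TPM between paired subunits (y axis, from 0) within each Control (blue) and WNK463 (red) sample, with the mean and SD of 3 samples in black. The groups are apart for *NCAPD2* over *NCAPD3*, *NCAPG* over *NCAPG2* and *SMC1A* over *SMC3*, and overlap for the other pairs.

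Other genes of these pathways were examined as lists. Of 36 listed genes 35 were tested, and by edgeR 15 were lower, 5 higher and 15 were not called, with a median log2 fold change of -0.13, while total-count scaling gave 11 lower and 13 higher. Of all tested genes 35.3% were lower and 35.5% higher, and with total-count scaling 26.1% and 46.1%. With the GC offset 20 of the 35 were lower and 6 higher, against 30.6% and 42.0% of all tested genes. The non-SMC cohesin partners had log2 fold changes of smaller size than *SMC1A*. The kleisin *RAD21* had 564, 605 and 609 CPM in Control, and 519, 528 and 499 CPM in treated cells, which is -0.20 on the log2 scale (adjusted p = 7.8e-04 from edgeR) and did not pass with total-count scaling (-0.05) or limma (-0.01). *STAG1* (-0.09, adjusted p = 0.27 from edgeR) and *STAG2* (0.13, adjusted p = 0.075) did not pass, and *STAG1* changed sign with total-count scaling (0.06) and *STAG2* with the GC offset (-0.10). *STAG1* was called lower under 2 of 14 alternatives, and *STAG2* was called higher under 5 and lower under 1, the GC offset. *STAG2* was 0.04 without Control replicate 1, and 0.19 and called without Control replicate 3 (adjusted p = 0.012 from edgeR). The difference between *SMC1A* and these partners was not tested. The meiotic subunit *STAG3* was higher, rising from 13.7 ± 0.963 to 26.3 ± 0.234 CPM (SD, n = 3 each; log2 fold change 0.94, adjusted p = 3.0e-08 from edgeR). Meiotic *SMC1B* and *REC8* were below 3 CPM in all samples and did not pass, and *RAD21L1* was at a count of 0.

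Among 9 genes that load, acetylate or release cohesin, 3 were lower and 3 higher, and the paired acetyltransferases of SMC3 went in opposite directions. *ESCO2*, which acts in S phase, had 41.2, 51.0 and 51.4 CPM in Control and 22.3, 23.0 and 22.2 CPM with WNK463, a log2 fold change of -1.09 (adjusted p = 3.7e-09 from edgeR). *ESCO1* had 22.2, 26.7 and 26.9 CPM in Control and 62.3, 67.0 and 57.1 CPM with WNK463, a log2 fold change of 1.30 (adjusted p = 1.9e-10 from edgeR). *CDCA5*, which encodes sororin, a protector of cohesion, was at -0.63. The loader gene *NIPBL* was higher at 0.40 and its partner *MAU2* at 0.12, with adjusted p = 2.1e-05 and 0.036 from edgeR, and both were named after their values were seen. *MAU2* lost its call under 7 of 14 alternatives and kept it at 0.27 with total-count scaling, 0.32 with limma and 0.33 with the GC offset. *NIPBL* was 0.32 without Control replicate 1, 0.46 without Control replicate 3 and 0.28 with the GC offset. *PDS5A*, named in the same way, was lower at -0.25 and lost its call with total-count scaling (-0.10) and with limma on log2(TPM + 1) (-0.07). *WAPL* (-0.03), *PDS5B* (-0.00) and *HDAC8* (-0.12) did not pass. With the GC offset *PDS5B* (-0.24) and *WAPL* (-0.10) were called lower, while limma on log2(TPM + 1) called *WAPL* higher (0.20).

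Genes of separation gave 2 lower of 4, *ESPL1* (-0.66), which encodes separase, and *SGO1* (-0.55), while *PTTG1* (0.12) and *SGO2* (0.25, or -0.05 with the GC offset) did not pass. *PTTG1* was called higher under 4 of 14 alternatives and *SGO2* under 7. *SGO2* was 0.08 without Control replicate 1, and 0.45 and called without Control replicate 3 (adjusted p = 1.4e-04 from edgeR). In the SMC5/6 complex, *SMC6* was higher at 0.59 (0.47 without Control replicate 1, 0.68 without Control replicate 3 and 0.40 with the GC offset). *NSMCE4A* was lower at -0.21 (not called under 4 of 14 alternatives), and the other 4 genes did not pass. Of these, *NSMCE2* (0.07) and *NSMCE3* (0.05) were each called higher under 3 of 14 alternatives, *NSMCE1* (-0.13) lower under 2, and *SMC5* (0.03) higher under 1 and lower under 1. Of 10 genes of mitosis and chromosome structure, among them the insulator gene *CTCF* (named after its values were seen), 8 were lower, and the 3 with the smallest p were *PLK1* (-0.69), *TOP2A* (-0.67) and *MKI67* (-0.59), while *TOP2B* (0.02) and *MCPH1* (0.06) did not pass. *TOP2B* was called higher under 3 of 14 alternatives and lower under 1, and *MCPH1* higher under 1. *CDK1* (-0.31), also named after its values were seen, was among the 8. It lost its call with total-count scaling (-0.16) and with limma on log2(TPM + 1) (-0.12), and was -0.54 with the GC offset. The median of the 6 subunits specific to a condensin was -0.81, and that of these 10 genes was -0.42.

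**Figure D5:**
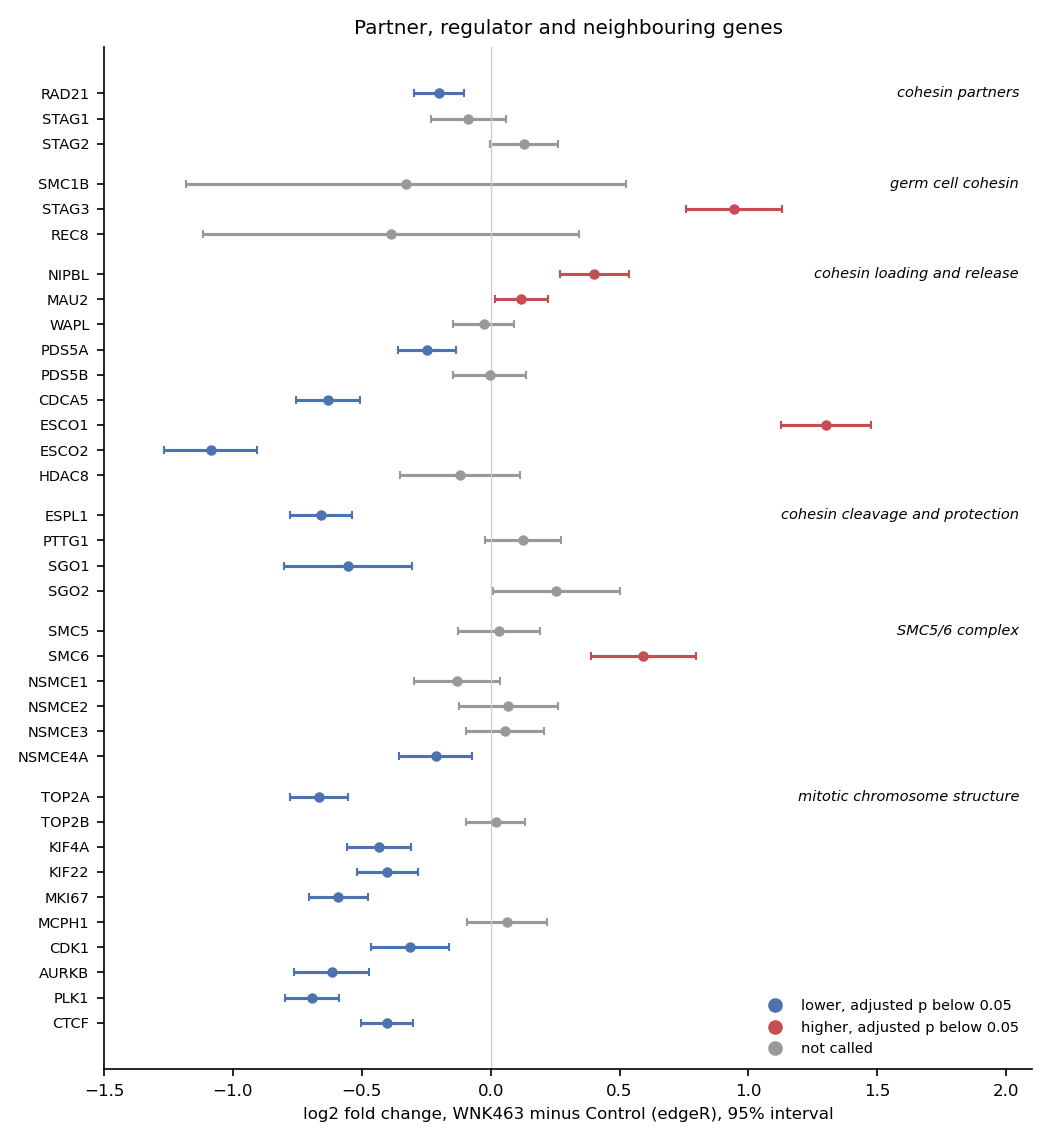
Log2 fold changes with 95% intervals from edgeR (x axis) for 35 tested genes related to condensin and cohesin, grouped by list, with genes called lower in blue, higher in red and those not called in grey. *ESCO1* and *ESCO2* lie at opposite ends, at 1.30 and -1.09, and *SMC6* has a larger value than *SMC5*.

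Proliferation markers, a list that shares *MKI67* with the one above, were also examined. All 5 (*MKI67*, *PCNA*, *CCNB1*, *CCNA2* and *BUB1*) were lower by edgeR, with log2 fold changes from -0.82 to -0.23 and a median of -0.59. With total-count scaling 4 were called, without *CCNB1* (-0.08), and with limma on log2(TPM + 1) *CCNB1* (-0.10) and *CCNA2* (-0.12) did not pass. Their summed level was 1915, 2075 and 2078 CPM in Control and 1392, 1377 and 1330.1 CPM with WNK463, and *PCNA* was the most abundant by TPM. Of the 9 myeloid markers 3 were lower and 5 higher by edgeR, and 2 lower and 6 higher with total-count scaling. With the GC offset 3 were lower and 6 higher. Over all tested genes 35.3% were called lower and 35.5% higher by edgeR. These shares were 26.1% and 46.1% with total-count scaling, and 30.6% and 42.0% with the GC offset. The share of myeloid markers called lower was thus near that of all tested genes. *LYZ*, the most abundant, had 1326, 1334 and 1406 CPM in Control and 287, 282 and 304 CPM with WNK463, a log2 fold change of -2.22. *CD33* (-0.38) and *FLT3* (-0.20) were also lower, while *PTPRC* (1.20), *CSF1R* (0.97), *HOXA9* (0.72), *CD4* (0.66) and *MEIS1* (0.33) were higher. *SPI1* (0.002) did not pass. With the GC offset *CD33* was -0.19, and *SPI1* was called higher at 0.27 (adjusted p = 4.3e-06 from edgeR). The summed level of the myeloid markers was 2629, 2662 and 2726 CPM in Control and 1993, 1946 and 1988 CPM with WNK463. Without *LYZ* the sum was higher with WNK463, at 1303, 1328 and 1321 CPM in Control and 1706, 1664 and 1684 CPM in the treated samples. The part of either marker list in the members' fall was not tested.

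The tested genes with profiles most like the leading members were named by the smallest root mean square difference of log2 CPM, centred on the Control mean, over the 6 samples. For *NCAPH* the nearest was *TOMM40* (0.0138). For *NCAPG2* they were *FUNDC2* (0.0339), *NR2C2AP* (0.0344) and *LZTS1* (0.0372), and for *SMC1A* they were *TPX2* (0.0228), *ZNF512* (0.0248) and *PPRC1* (0.0251). Candidates were the 9012 other tested genes with a mean of at least 10 CPM.

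Several members share exon sequence with genes on the opposite strand, and whether counting used strand is not given in the sources used here. In the GENCODE 29 annotation, *LCORL* overlapped 33.1% of the exon bases of *NCAPG*, and its mean count was 283 in Control and 479 with WNK463. *TRIM59* overlapped 18.5% of *SMC4* and *IFT80* 7.18%, and *MRPL51* overlapped 7.49% of *NCAPD2*. Reads from these overlaps cannot be told apart without strand, and this limit holds for the ratio of *NCAPG* to *NCAPG2* as well. Annotated pseudogenes of *NCAPD2*, *NCAPG* and *SMC4* are not in the table, so reads of a near-identical copy could have been assigned to the members.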

How the data were processed

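The authors made estimated counts per gene, which were deposited rounded to whole numbers and were used as such. TPM were deposited by the authors, scaled for transcript length and to a fixed sum. In 62 values a count of 0 stood beside a TPM above 0, so the counts are rounded estimates. The authors' group means, fold changes and p-values were not used. The submitters' notes name fastp, Bowtie2, HISAT2, StringTie, RSEM, DESeq2, edgeR and GRCh38, with no role or version. Counts were tested with edgeR 4.0.16 in R 4.3.3, with TMM factors, edgeR's default expression filter and the quasi-likelihood F test, adjusted by Benjamini-Hochberg over 11973 genes. The standard error was taken from F and the log2 fold change, and 95% intervals from it. Alternatives were DESeq2 1.42.0, limma 3.58.1 on log2(TPM + 1) and log2(TPM + 0.1), total-count scaling, other filters, a replicate block, glmTreat, each replicate left out and a GC offset (lowess on transcript GC, GENCODE 29). The code was tested on simulated data with few changed genes and no shift with GC content, unlike the data here. Named genes are the members, in each pathway list up to 3 with the smallest p and those that did not pass, all proliferation and myeloid markers, and up to 3 nearest profiles. Other names are stated as chosen after their values were seen. The members and lists were chosen with earlier results of these data known.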

Additional observations from a re-analysis of the deposited data

How the results depend on the processing

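The 10 member fold changes were recomputed under 14 alternatives each, 140 values, of which 127 kept direction and side of the threshold, 2 lost the call, 4 gained it and 7 changed sign. Direction changed for *SMC2* (0.0782 with total-count scaling, 0.113 and 0.116 with limma on log2(TPM + 1) and log2(TPM + 0.1)) and *SMC4* (0.0428, 0.0242 and 0.0244), and for *SMC2* without Control replicate 3 (0.0181). Leaving out each replicate gave *NCAPD2* -0.74 to -0.69, *NCAPG* -0.65 to -0.47, *NCAPH* -0.99 to -0.92, *NCAPD3* -0.68 to -0.64, *NCAPG2* -1.16 to -1.12, *NCAPH2* -0.96 to -0.86, *SMC1A* -0.79 to -0.73, *SMC3* -0.56 to -0.37, *SMC4* -0.21 to -0.03 and *SMC2* -0.213 to 0.0181, and 8 to 10 members lower.

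The same leave-one-out ranges crossed 0 for *WAPL* (-0.0893 to 0.0132), *PDS5B* (-0.0981 to 0.0352), *SMC5* (-0.0745 to 0.0804), *NSMCE2* (-0.0157 to 0.138), *TOP2B* (-0.0532 to 0.0534) and *MCPH1* (-0.00430 to 0.13). Total-count scaling, limma on log2(TPM + 1) and limma on log2(TPM + 0.1) in turn gave *STAG1* 0.0649, 0.101 and 0.106, *WAPL* 0.12, 0.20 and 0.20, *PDS5B* 0.15, 0.21 and 0.22 and *NSMCE1* 0.0211, 0.0208 and 0.0210, and *HDAC8* was 0.0342 with total-count scaling. The limma fits gave *MCPH1* -0.0194 and -0.0199. *PDS5B* was 0.0135 with a filter of at least 10 counts in every sample. With the GC offset, chosen after seeing the data, *STAG2* was -0.10, *SGO2* -0.0480, *SMC5* -0.203, *NSMCE1* 0.0618 and *TOP2B* -0.0924, of which *STAG2*, *SMC5* and *TOP2B* were called. *PDS5B* (-0.240), *WAPL* (-0.0987) and *STAG1* (-0.182) were also called lower with the offset, and the pathway genes called lower went from 15 to 20. Members past a log2 fold change of 1 were 0 with total-count scaling and 0 and 0 with the limma fits, against 1. Other pathway genes called higher were 13, 12 and 11 in the same order, against 5. All genes called lower were 2658 and 2646 with the limma fits, and those with a log2 fold change of -1 or less were 266 and 366, and 345 with glmTreat. The change in the ratio of *NCAPH* to *NCAPH2* was -0.0407 from CPM. The cause was not tested for any of these changes.

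The main test was planned without pairing. The replicate block paired samples by replicate number, and the deviations of the paired samples had correlations of 0.02, -0.01 and -0.05. With the block *PDS5B* was 9.94e-05, 4175 genes were lower, 4223 were higher and 8 members were lower. The lowest member count was 743, and how far counting error limits the precision of the members was not tested.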
